A study of Sus scrofa with 8 samples.

Results

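Oxidative phosphorylation and the citrate cycle are described here through the nuclear genes that encode their subunits and enzymes, as measured in the jejunum of suckling piglets and of weaned piglets of the same age. Of 44 genes listed for the respiratory complexes, the ATP synthase, the pyruvate dehydrogenase complex and the citrate cycle, 21 had at least 1 array probe named by a RefSeq transcript of the gene, out of 3216 genes that could be named in this way. Each gene is represented by the probe with the highest mean signal over all arrays, a choice that does not use the difference between the groups. The 21 genes comprised NDUFA4, NDUFB8 and NDUFV2 of complex I, SDHB and SDHD of complex II, UQCRB of complex III, COX5B, COX6A1, COX6C, COX7A2 and COX7C of complex IV, ATP5A1 and ATP5O of the ATP synthase, DLD, DLAT and PDHB of the pyruvate dehydrogenase complex, and CS, IDH2, IDH3B, SUCLG1 and MDH2 of the citrate cycle. The other 23 listed genes, among them SDHA, UQCRC1, COX4I1, ATP5B, OGDH and PDHA1, were not analysed here.

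The study used 1-colour microarrays on 8 Duroc × Landrace piglets aged 25 days, with 1 piglet per array. The 4 suckling piglets had stayed with the sow. The 4 weaned piglets had spent the last 4 days, from 21 days of age, in nursery pens on a basal feed whose digestible energy was 14.48 MJ/kg and whose crude protein content was 20.50%. All animals came from 4 litters, with 1 piglet per litter in each group, and the tissue was a 2 cm piece of the middle jejunum taken as a whole.

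Cells oxidise pyruvate in the mitochondrial matrix, where the pyruvate dehydrogenase complex turns it into acetyl-CoA and the citrate cycle burns the acetyl group and loads electrons onto NADH and succinate. Complexes I and II take up these electrons, complexes III and IV pass them on to oxygen, and the proton gradient built up on the way drives the ATP synthase. Absorptive enterocytes depend on this supply for sodium-coupled nutrient uptake, and they burn glutamine as well as glucose.

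Signals are given as log2 intensity relative to the 75th percentile of the same array, so 0 marks that percentile and a difference of 1 is a doubling. All 168 values of the 21 genes lay above 0, between 1.65 and 8.04, and all 21 probes were well above background on all 8 arrays, so none was lost to the filter on dim probes. None of their 105 probes in all was saturated. A whole piece of gut mixes cell types, and fewer cells of a type and less RNA per cell cannot be told apart in it. The tissue showed markers of absorptive enterocytes: the 8 markers with a named probe out of 15 listed, FABP1, FABP2, APOA1, APOA4, MTTP, ANPEP, SLC5A1 and SLC15A1, were well above background on every array.

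Each group had a slide of its own, and effects of slide and of weaning cannot be told apart. Suckling replicate 1 was the dimmest array, with a 75th percentile of intensity of 245, while the other 7 arrays had 316.7 to 395. Suckling replicate 1 also stood apart from its group: its correlation across probes with the other suckling arrays was 0.953 to 0.9671, against 0.978 to 0.9825 among those 3, and its closest array was weaned replicate 1 (0.978). Where leaving out this array turned the sign of a named pathway gene or of a set of the 21 genes, the value without it is given. The same holds where it changed a call of such a gene. Differences of cell type markers are given with all arrays only.

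None of the 21 genes differed between weaned and suckling piglets past the threshold of the test across all probes (limma, Benjamini-Hochberg adjusted p under 0.05), which 0.177% of the 30554 tested probes passed. Differences were small. They ran from -0.03 for UQCRB to 0.46 for IDH2, with a median of 0.15 over the 21 genes beside 0.04 over all tested probes and 0.06 over the 2813 tested genes with a symbol. Only IDH2 had an unadjusted limma p under 0.05, which is 4.76% of the members, where 12.3% of all tested probes and 11.9% of the tested genes with a symbol did. The mean was higher in weaned piglets in 20 of 21 genes with the array's 75th percentile as the reference, in 16 or 17 with quantile normalisation, median scaling or the authors' deposited values, in 21 with the planned normexp background correction and in 12 without suckling replicate 1, while 54.9% of all tested probes and 57.5% of tested genes with a symbol had a higher mean. The median difference was 0.08 without suckling replicate 1 or without weaned replicate 4, and 0.26 without suckling replicate 4.

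A missed threshold does not show that the groups are alike, so the range of change that the data allow is given for each gene. The 95% confidence interval of the difference, from limma, lay within a doubling and a halving for all 21 genes. Across them the lowest bound was 0.686-fold (SDHD) and the highest 1.85-fold (MDH2). For 11 genes the whole interval lay within a change of 1.5-fold in either direction, and for 20 of 21 it included no change. For 16 genes the difference was smaller than the standard deviation between piglets of one group. Without suckling replicate 4, weaned replicate 1 or weaned replicate 3, the interval of MDH2 reached just past a doubling, up to 2.02-fold, and 20 genes stayed within these bounds. Under the planned normexp correction, which left no probe past the threshold, intervals reached 3.41-fold and none of the 21 stayed within them.

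**Figure D1:**
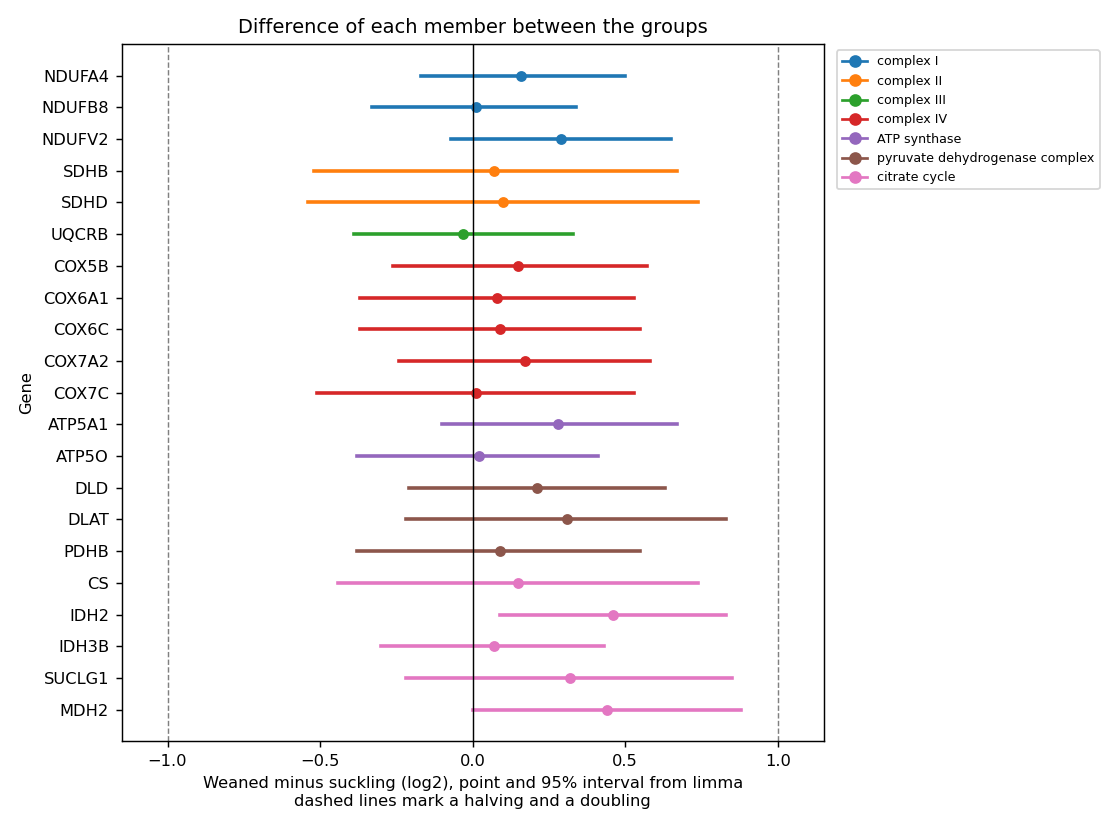
Difference of each gene between weaned and suckling piglets (log2) with its 95% confidence interval from limma (n = 4 per group), coloured by role; dashed lines mark a halving and a doubling. All 21 intervals lie between the dashed lines, and the interval of IDH2 is the one that does not include 0.

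Complex I takes electrons from NADH. NDUFV2, an iron-sulphur subunit next to the NADH site, measured 4.70, 4.56, 4.95 and 5.00 in suckling replicates 1 to 4 and 5.05, 5.16, 4.91 and 5.26 in weaned replicates 1 to 4. Weaned replicate 3 fell among the suckling values and the other 3 weaned arrays lay above all of them. The difference was 0.29, or 1.22-fold (SE 0.16, limma adjusted p = 0.496). NDUFA4, an accessory protein first counted with complex I and later placed in complex IV, measured 6.12, 6.07, 6.15 and 6.48 in suckling and 6.46, 6.30, 6.26 and 6.46 in weaned piglets. Here suckling replicate 4 had the highest value of all 8, and the difference of 0.16 did not pass (SE 0.15, limma adjusted p = 0.695). NDUFB8, an accessory membrane-arm subunit that is lost when the complex does not assemble, had 5.26, 5.19, 5.20 and 5.40 in suckling and 5.28, 5.24, 5.05 and 5.50 in weaned piglets. The means of NDUFB8, 5.26 ± 0.10 and 5.27 ± 0.19 (SD, n = 4 per group), were nearly the same, and the interval of its difference ran from 0.798-fold to 1.26-fold.

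Complex II, succinate dehydrogenase, belongs to both the citrate cycle and the respiratory chain. SDHB, its iron-sulphur subunit, measured 3.93, 4.94, 4.69 and 5.01 in suckling and 4.30, 4.80, 4.94 and 4.83 in weaned piglets. SDHD, a membrane anchor of the same complex, measured 2.72, 3.42, 3.16 and 3.94 in suckling and 2.97, 3.86, 3.39 and 3.41 in weaned piglets. In both genes replicate 1 was the lowest array of its group, in suckling as in weaned piglets. Their within-group standard deviations, 0.40 and 0.45, included the highest of the 21 genes, against a median of 0.25 over the 21 and 0.31 over all tested probes. The group differences were 0.07 for SDHB and 0.10 for SDHD (limma adjusted p = 0.932 and 0.917), and both changed sign without suckling replicate 1, to -0.16 and -0.10 (limma adjusted p = 0.654 and 0.85).

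UQCRB, a small subunit of complex III that contributes to ubiquinone binding, was the single member of that complex with a named probe. It measured 5.28, 5.31, 5.37 and 5.66 in suckling and 5.26, 5.63, 5.20 and 5.43 in weaned piglets. Weaned replicates 1 and 3 lay below all suckling arrays, suckling replicate 4 lay above all weaned arrays, and the other values were mixed. Its difference of -0.03 was the one below 0 (SE 0.16, limma adjusted p = 0.953), with an interval from 0.762-fold to 1.26-fold, and it was above 0 under both normexp runs, with array weights, as a mean over its 7 probes and without suckling replicate 4, weaned replicate 1 or weaned replicate 3.

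Complex IV, cytochrome c oxidase, hands the electrons to oxygen, and its nuclear subunits surround a core encoded by the mitochondrial genome. All 5 measured subunits had differences between 0.01 and 0.17. COX7A2, the isoform of subunit VIIa found in most tissues, measured 6.41, 6.51, 6.50 and 6.86 in suckling and 6.74, 6.70, 6.42 and 7.08 in weaned piglets. COX5B, a zinc-binding subunit on the matrix side, measured 7.14, 7.34, 7.20 and 7.81 in suckling and 7.42, 7.50, 7.43 and 7.75 in weaned piglets. In COX5B the lowest and the highest of the 8 values were both from suckling piglets. COX6C measured 5.64, 6.35, 6.17 and 6.47 in suckling and 6.01, 6.22, 6.34 and 6.42 in weaned piglets, with suckling replicate 1 below all other arrays. The differences were 0.17 for COX7A2, 0.15 for COX5B and 0.09 for COX6C (limma adjusted p = 0.751, 0.773 and 0.887), and without suckling replicate 1 they were 0.11, 0.08 and -0.08 (limma adjusted p = 0.763, 0.841 and 0.8). COX6A1 and COX7C differed by 0.08 and 0.01. Without suckling replicate 1 both were below 0, at -0.07 and -0.08, and the sign of the COX7C difference also turned with quantile normalisation, median scaling and the deposited values.

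The ATP synthase makes ATP from the proton gradient. ATP5A1, the alpha subunit of its catalytic head, measured 6.65, 7.03, 6.94 and 7.25 in suckling and 7.10, 7.26, 7.17 and 7.47 in weaned piglets. All weaned values of ATP5A1 lay above 3 of the 4 suckling arrays, and suckling replicate 4 fell among them. The difference was 0.28, or 1.22-fold (SE 0.17, limma adjusted p = 0.538), and 0.18 without suckling replicate 1. ATP5O, the stalk subunit that confers oligomycin sensitivity, measured 5.55, 5.73, 5.61 and 6.15 in suckling and 5.66, 5.85, 5.64 and 5.97 in weaned piglets. Its difference of 0.02 had an interval from 0.77-fold to 1.33-fold (limma adjusted p = 0.977), and it was slightly below 0 with quantile normalisation, median scaling and the deposited values (-0.02, -0.03 and -0.03) and -0.05 without suckling replicate 1.

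The pyruvate dehydrogenase complex is the gate from glycolysis to the citrate cycle. DLAT, its acetyltransferase core, measured 2.57, 1.65, 1.73 and 2.08 in suckling and 2.16, 2.59, 2.04 and 2.46 in weaned piglets. Suckling replicate 1, low for the complex II genes, was the second highest array for DLAT. The difference was 0.31 (SE 0.23, limma adjusted p = 0.626), and it was 0.49 without that array (limma adjusted p = 0.179). DLD, the dihydrolipoamide dehydrogenase that this complex shares with the 2-oxoglutarate dehydrogenase complex, measured 2.84, 3.08, 2.60 and 3.36 in suckling and 3.08, 3.23, 3.09 and 3.32 in weaned piglets. PDHB, a subunit of the decarboxylase, measured 3.30, 3.70, 3.28 and 4.01 in suckling and 3.70, 3.72, 3.35 and 3.87 in weaned piglets. For both DLD and PDHB the suckling values spanned the whole weaned range. Their differences were 0.21 and 0.09 (limma adjusted p = 0.689 and 0.896), and 0.16 and -0.01 without suckling replicate 1.

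The citrate cycle held the 2 genes with the lowest p among the 21. IDH2, the NADP-dependent mitochondrial isocitrate dehydrogenase, measured 5.67, 5.03, 5.44 and 5.46 in suckling and 5.93, 5.83, 5.83 and 5.84 in weaned piglets. It was the 1 member whose groups did not overlap, with every weaned array above every suckling array, a pattern that 4.93% of all tested probes and 5.65% of tested genes with a symbol showed in this direction. Suckling piglets averaged 5.40 ± 0.27 and weaned piglets 5.86 ± 0.05 (SD, n = 4 per group). The difference of 0.46, or 1.37-fold, had an interval from 1.06-fold to 1.77-fold and did not pass the threshold (SE 0.16, limma adjusted p = 0.32). Without suckling replicate 1 it was 0.55 (limma adjusted p = 0.097).

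MDH2, the mitochondrial malate dehydrogenase that closes the cycle, measured 4.52, 4.05, 4.28 and 4.76 in suckling and 4.62, 5.04, 4.68 and 5.04 in weaned piglets. Weaned replicates 2 and 4 lay above all suckling arrays, and suckling replicate 4 lay above the other 2 weaned arrays. The difference was 0.44, or 1.36-fold (SE 0.20, limma adjusted p = 0.408), with an interval from 0.998-fold to 1.85-fold. SUCLG1, the alpha subunit of succinyl-CoA ligase, measured 2.69, 3.59, 3.33 and 3.80 in suckling and 3.52, 3.65, 3.69 and 3.81 in weaned piglets. Most of its difference of 0.32 (limma adjusted p = 0.619) came with suckling replicate 1, since it was 0.10 without that array (limma adjusted p = 0.765). CS, citrate synthase, which was singled out after its values were seen because it is widely used as a marker of mitochondrial content, measured 4.65, 5.62, 5.47 and 5.71 in suckling and 5.10, 5.58, 5.79 and 5.58 in weaned piglets. Replicate 1 was again the lowest array in each group, and the difference of 0.15 (SE 0.26, limma adjusted p = 0.847) became -0.09 without suckling replicate 1 (limma adjusted p = 0.822). IDH3B, a subunit of the NAD-dependent isocitrate dehydrogenase, differed by 0.07 (limma adjusted p = 0.9).

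**Figure D2:**
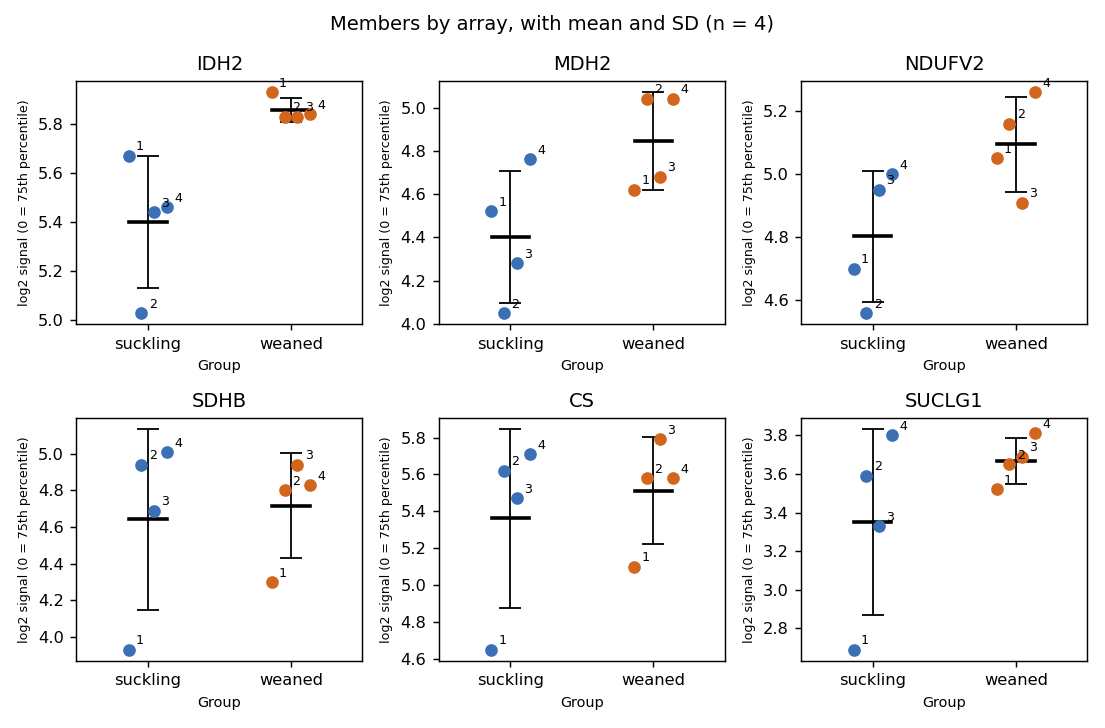
Log2 signal of 6 genes in each piglet (0 marks the array's 75th percentile), with the replicate number beside each point and the group mean and SD as bars (n = 4 per group). IDH2 separates the groups, MDH2 and NDUFV2 overlap in part, and in SDHB, CS and SUCLG1 replicate 1 is the lowest point of both groups.

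By role, the median difference was 0.16 for complex I, 0.09 for complex II, 0.09 for complex IV and 0.15 for the ATP synthase. It was 0.21 for the pyruvate dehydrogenase complex and 0.32 for the citrate cycle. NDUFA4, later placed in complex IV, was counted in complex I here, and the complex I median is its value, between 0.01 for NDUFB8 and 0.29 for NDUFV2. Over the 13 genes of oxidative phosphorylation it was 0.09, and over the 8 genes of pyruvate oxidation and the cycle 0.26. Without suckling replicate 1 these medians were -0.05, with 6 of 13 genes higher in weaned piglets, and 0.15, with 6 of 8 higher. The medians of complex II and complex IV were also below 0 without that array, at -0.13 and -0.07, and that of the citrate cycle was 0.13. Without weaned replicate 4 the median over the 13 genes was 0.04, and without suckling replicate 4 it was 0.21. Whether these 2 sets differ was not tested.

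The spread between piglets of one group was not even over the arrays. In suckling replicate 4 the genes were high: 18 of the 21 had their highest suckling value there, as did 24.7% of all tested probes. In suckling replicate 1 the median deviation was -0.27 over the 13 genes of oxidative phosphorylation and -0.17 over the 8 genes of pyruvate oxidation and the cycle. Of the 13 genes, 10 had their lowest suckling value there and none its highest, although none of the complex I genes was lowest there. Of the 8 genes, 2 had their lowest suckling value there, CS and SUCLG1, and 3 their highest, or 25% and 37.5%. Over all tested probes 30.4% were lowest and 37.3% highest there, near the shares of the 8 genes. In weaned piglets, replicate 4 was highest for 12 genes, beside 22.6% of all tested probes. Replicates 3 and 1 were lowest for 11 and 9, beside 31.5% and 22% of all tested probes. These genes share each array's scaling, so they are not separate observations of a piglet. The median deviation of the 21 genes from their own mean over the 8 arrays was -0.24, -0.08, -0.16 and 0.27 in suckling replicates 1 to 4 and -0.01, 0.14, -0.03 and 0.24 in weaned replicates 1 to 4, and so the group ranges overlapped.

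**Figure D3:**
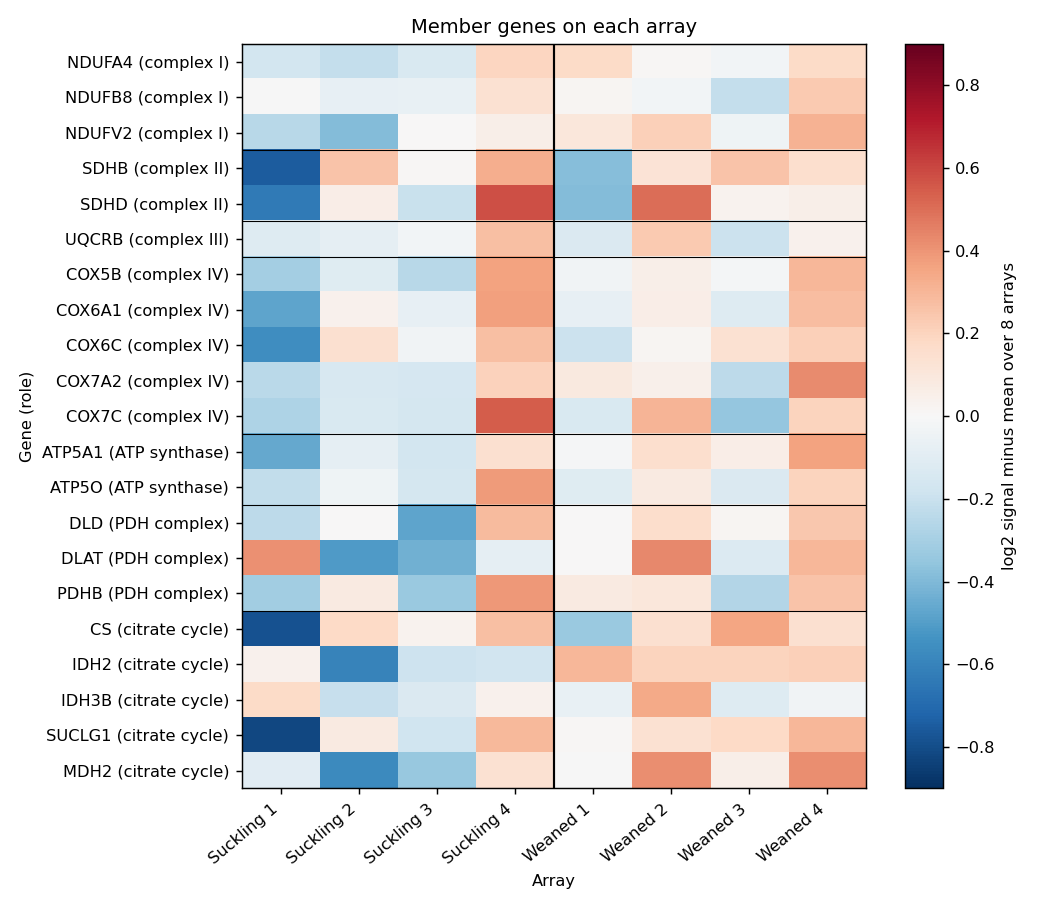
Log2 signal of each gene on each array minus the gene's mean over the 8 arrays, with genes ordered by role and a line between the suckling and weaned arrays. Blue cells mark low values: SDHB, SDHD, COX6C, CS and SUCLG1 are low in suckling replicate 1, whereas most genes are high in suckling replicate 4 and weaned replicate 4.

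Enterocyte markers shared the extremes of the suckling group with oxidative phosphorylation and the order of the weaned arrays only in part. Among the weaned arrays both had their lowest median deviation in replicate 1, but they peaked in different replicates. For the 13 genes of oxidative phosphorylation the median deviation was -0.08, 0.08, -0.04 and 0.22 in weaned replicates 1 to 4. The median deviation of the 8 enterocyte markers was -1.41, 0.44, 0.36 and 1.09 in suckling replicates 1 to 4 and -0.71, -0.15, 0.34 and 0.10 in weaned replicates 1 to 4. All 8 were lowest in suckling replicate 1 and highest in suckling replicate 4 of the 8 arrays, and within the weaned group all 8 were lowest in replicate 1. Of the 8 markers, 6 had their highest weaned value in replicate 3, as did 26.5% of all tested probes. In that array 11 of the 21 genes, 8 of them from oxidative phosphorylation, had their lowest weaned value, beside 31.5% of all tested probes. In weaned replicate 4, where 12 of the 21 genes peaked, the markers' median deviation was 0.10. The summed linear signal of the 8 markers ranged from 600 to 3500 in suckling and from 1010 to 2090 in weaned piglets, in units of the 75th percentile. The summed signal of the 21 genes ranged from 987 to 1490 and from 1200 to 1480. Proliferating cell markers, of which 4 of 8 had a named probe, had their lowest deviations in suckling replicates 2 and 4 (-0.87 and -0.81) and 0.56 in suckling replicate 1. Their summed signal was 10.1 to 28.0 in suckling and 17.3 to 29.5 in weaned piglets. Some marker sums of other cells did not overlap between the groups, and the brightest gene weighs most in such a sum. The summed signal of 9 leukocyte markers of 13 listed was 26.1 to 172 in suckling and 220 to 328 in weaned piglets, that of 4 epithelial markers of 7 was 404 to 426 and 481 to 654, and that of 5 endothelial markers of 6 was 16.2 to 17.8 and 14.3 to 14.5. Gene by gene, the groups did not overlap for 2 of the 9 leukocyte markers, 0 of the 4 epithelial and 1 of the 5 endothelial markers. The leukocyte ones were higher and the endothelial one lower in weaned piglets, patterns that 4.93% and 2.83% of all tested probes showed. None of these markers passed the threshold (lowest limma adjusted p = 0.218). LYZ, the brightest leukocyte marker, differed by 1.78 and CD3D by -0.07, and KRT8, the brightest epithelial marker, by 0.70, while EPCAM, CDH1 and CLDN7 differed by -0.04, 0.09 and 0.04. Smooth muscle markers, 5 of 9, overlapped (140 to 299 and 78.6 to 262), as did 3 of 6 fibroblast markers (52.4 to 84 and 45.7 to 66.7) and 2 of 7 markers of enteric neurons and glia (3.11 to 4.98 and 3.95 to 5.45). No listed erythroid marker had a named probe. The part of cell composition in the levels of the 21 genes was not tested.

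**Figure D4:**
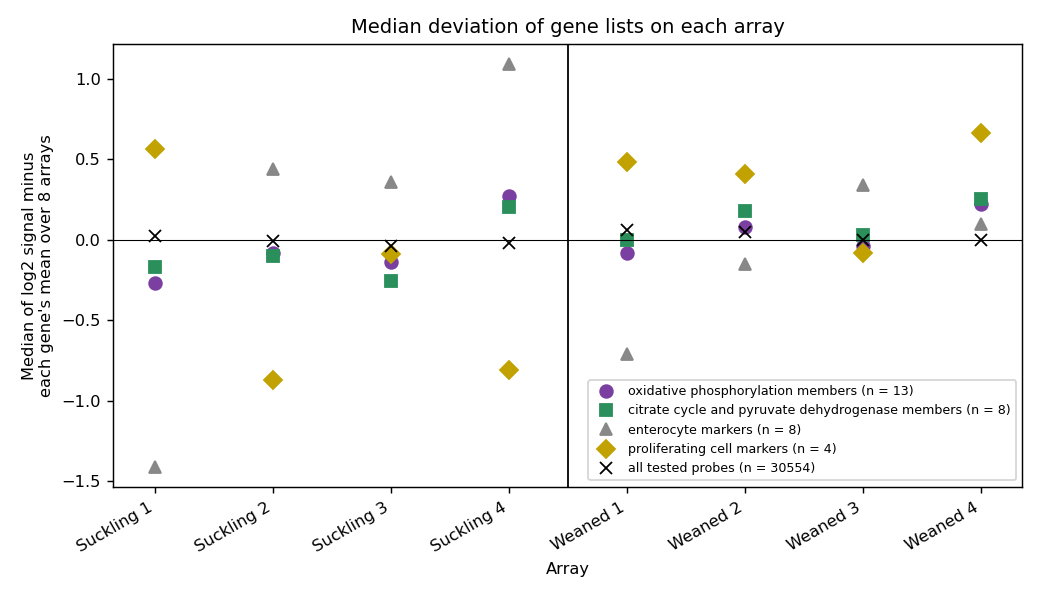
Median deviation of each gene list on each array from the genes' means over the 8 arrays (log2), for 13 genes of oxidative phosphorylation, 8 of pyruvate oxidation and the citrate cycle, 8 enterocyte markers, 4 proliferating cell markers and all tested probes. Both member sets are highest in suckling replicate 4 and weaned replicate 4. In the suckling group the first is lowest in replicate 1 (-0.27), as the enterocyte markers are (-1.41), and the second in replicate 3 (-0.26), and the value of all probes lies near 0 through the scaling of the arrays.

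Most of the genes had several probes, and these give a repeated reading of the same RNA, not of further piglets. Of the 105 probes of the 21 genes, 94 had a higher and 11 a lower mean in weaned piglets, with a median difference of 0.17 and a range from -0.17 to 0.68. None passed the threshold (lowest limma adjusted p = 0.235). At an unadjusted limma p under 0.05 there were 12, which is 11.4% beside 12.3% of all tested probes. All 12 were higher in weaned piglets, and in that direction the share is 11.4% beside 7.75% of all tested probes. They belonged to NDUFA4, NDUFV2, ATP5A1, IDH2, IDH3B, DLD and DLAT. The groups did not overlap for 10 of the 105 probes, all higher in weaned piglets, which is 9.52% beside 4.93% of all tested probes, and these probes came from 5 genes.

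All 14 probes of ATP5A1 had a higher mean in weaned piglets, by 0.27 to 0.66, and in 3 of them the groups did not overlap. One of these, A_72_P622319, measured 5.17, 5.31, 5.28 and 5.72 in suckling and 5.86, 6.01, 5.82 and 6.08 in weaned piglets, a difference of 0.57 (SE 0.16, limma adjusted p = 0.235). All 5 probes of NDUFV2 were higher by 0.29 to 0.46, with 3 not overlapping, and all 3 of IDH2 by 0.46 to 0.68, with 2 not overlapping. For IDH2, the probe A_72_P757430 measured 1.17, 1.11, 1.27 and 1.85 in suckling and 2.07, 2.20, 1.98 and 1.86 in weaned piglets. Its groups did not overlap, although suckling replicate 4 came close to weaned replicate 4. The 9 DLD probes were all higher, by 0.13 to 0.45. The probes of SDHB, SDHD and CS lay on both sides of 0, from -0.17 to 0.22 over the 3 genes. So did those of NDUFB8 (-0.11 to 0.09), UQCRB (-0.03 to 0.29) and COX6A1 (-0.03 to 0.22), and the lowest ATP5O probe was at 0.00. Where probes of a gene disagreed in size, the brightest one used here often gave the smaller difference: in 14 of the 19 genes with several tested probes it was below the median of the other probes, or 73.7%, beside 53.3% of the 1390 genes with a symbol and several tested probes. Probe sequences were not used here, so cross-hybridisation with related transcripts was not checked.

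**Figure D5:**
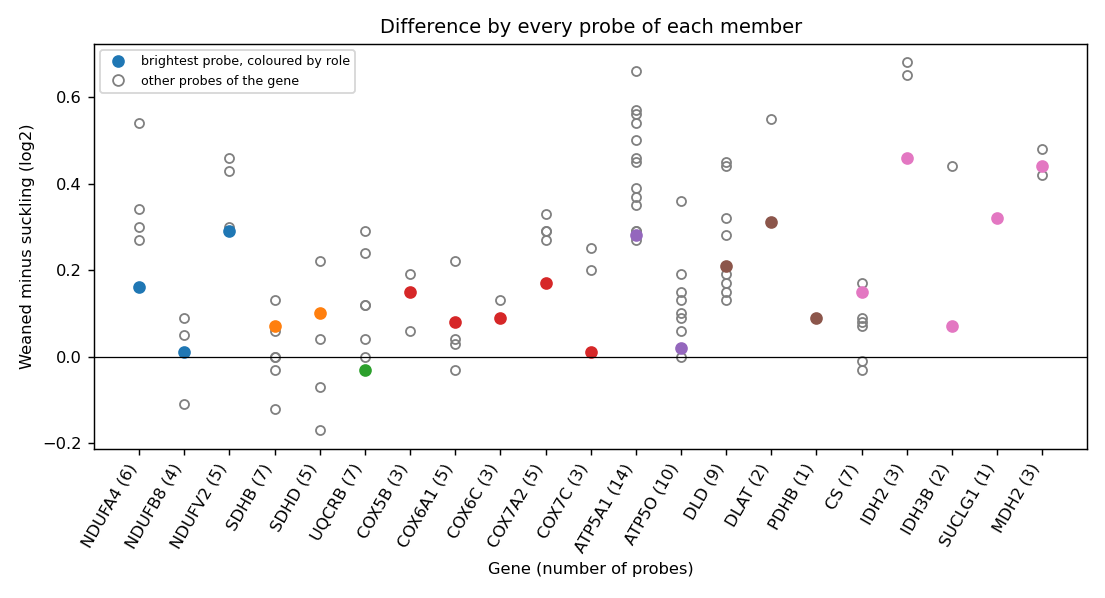
Weaned minus suckling difference (log2) by every probe of each gene, with the brightest probe filled and coloured by role, the others open, and the number of probes in parentheses. All 14 probes of ATP5A1 and all 9 of DLD lie above 0, whereas those of SDHB, SDHD and CS spread around 0. Probes of NDUFB8, UQCRB and COX6A1 also lie on both sides of 0.

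Other genes of the pathway were taken from 10 lists holding 160 genes, of which 41 had a tested named probe. None of the 41 passed the threshold (0.177% of all tested probes did), 30 had a higher mean in weaned piglets, and the median difference was 0.12. An unadjusted limma p under 0.05 was reached by 2 higher genes and 1 lower gene, or 7.32% of the 41, beside 12.3% of all tested probes and 11.9% of tested genes with a symbol. Without suckling replicate 1, 2 of the 41 passed, PDK4 and HK2, where 1.82% of all tested probes did, and 25 had a higher mean. Among 8 further ATP synthase genes, 6 had a higher and 2 a lower mean. ATP5J2, a membrane subunit, differed by 0.37 (limma adjusted p = 0.486), and ATP5E, the epsilon subunit, by -0.29 (limma adjusted p = 0.538). Of the further complex I genes, NDUFB6 differed by 0.29 and NDUFC1 by 0.02, and NDUFC1 by -0.02 without suckling replicate 1. UQCR10 of complex III differed by 0.28 and CYCS, cytochrome c, by 0.04, although the 12 probes of CYCS spread from -0.18 to 1.37. COX7A1, the subunit VIIa isoform of heart and skeletal muscle, differed by -0.54 with wide spread, at 3.76 ± 0.81 in suckling and 3.22 ± 0.58 in weaned piglets (SD, n = 4 per group), and by -0.90 without suckling replicate 1. None of these passed the threshold (limma adjusted p from 0.486 to 0.972).

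Among 5 further enzymes of pyruvate oxidation and the cycle, 4 had a higher mean, and the 2 with the lowest p were PC, pyruvate carboxylase, with 0.57, and DLST, the succinyltransferase of the 2-oxoglutarate dehydrogenase complex, with 0.23 (limma adjusted p = 0.658 and 0.726), and without suckling replicate 1 these were 0.24 and 0.05. All 8 tested genes of mitochondrial transport and structure had a higher mean, by 0.08 to 0.39. VDAC3, an outer membrane channel, differed by 0.39 and VDAC2 by 0.18 (limma adjusted p = 0.466 and 0.73). Of the assembly factors, COX10, which makes the haem A precursor for complex IV, measured -2.88, -2.57, -2.94 and -2.61 in suckling and -2.40, -1.78, -2.02 and -2.48 in weaned piglets. The groups of COX10 did not overlap, but its difference of 0.58 did not pass (limma adjusted p = 0.297). NDUFAF3, an assembly factor of complex I, differed by 0.36 (limma adjusted p = 0.44). No gene of the mitochondrial genome had a named probe, so the subunits that it encodes were not analysed here.

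Among the regulators, PPARGC1A, a coactivator of mitochondrial biogenesis, measured 1.12, 3.34, 2.26 and 3.05 in suckling and 0.59, 1.14, 1.89 and 1.81 in weaned piglets. Suckling replicate 1 fell among the weaned values and the other 3 suckling arrays lay above them, and the difference of -1.08 did not pass (SE 0.49, limma adjusted p = 0.417), nor did that of -1.52 without suckling replicate 1 (limma adjusted p = 0.0746). TFB1M, a mitochondrial ribosomal RNA methyltransferase, and TFAM, which packs and transcribes mitochondrial DNA, differed by 0.35 and 0.20 (limma adjusted p = 0.548 and 0.734). The pyruvate dehydrogenase complex is switched off by kinases, and one of these, PDK4, measured 3.52, 3.67, 4.62 and 4.27 in suckling and 2.80, 2.27, 1.74 and 2.19 in weaned piglets. Its groups did not overlap, a pattern seen downward in 2.83% of all tested probes. The mean was 0.292 times that of suckling piglets, a difference of -1.77 that came near the threshold without passing it (SE 0.30, limma adjusted p = 0.0703). Without suckling replicate 1 it was -1.94 and passed (limma adjusted p = 0.0343), and without any one of the other 7 arrays the limma adjusted p was 0.138 to 0.256. HK2, a hexokinase that feeds glycolysis, measured -3.68, -5.03, -4.63 and -6.21 in suckling and -3.17, -3.37, -3.67 and -3.58 in weaned piglets, and was well above background on 7 of the 8 arrays. Its difference was 1.44 (SE 0.45, limma adjusted p = 0.272), and without suckling replicate 1 it was 1.84 and passed (limma adjusted p = 0.0461). With all arrays its groups did not overlap, although suckling replicate 1 came close to weaned replicate 3. The list on pyruvate supply and its control, to which PDK4 and HK2 belong, held 10 tested genes, 4 with a higher and 6 with a lower mean, and a median difference of -0.04.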

How the data were processed

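Jejunal RNA of 4 suckling and 4 weaned piglets, separate animals per the labels, was measured on 1-colour Agilent arrays labelled with Cy3 (RNA integrity number at least 7.0). Scans were read with Agilent Feature Extraction 10.7, per the submitters' processing notes. Per the file headers, the deposited intensity of each spot already had its background subtracted. The authors also deposited log2 values of the same arrays, which were used as an alternative because their scaling is not stated. They followed the order of each array's intensities, with column medians near 5.50, and whether a constant was added is unknown.

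Control and outlier-flagged spots were dropped and repeated spots averaged by probe, giving 43603 probes. From each log2 intensity the array's 75th percentile was subtracted. Probes well above background on at least 4 arrays, with at least 3 values per group, were tested (30554). Group was the one term of the model in limma 3.58.1 (R 4.3.3; two-sided, Benjamini-Hochberg adjustment over all tested probes, threshold 0.05), and the fit was tested on simulated data. Of the probes, 8091 carried a RefSeq accession and 6924 of these were named through RefSeq and gene name tables. The number of arrays limits the precision.

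The genes and lists were chosen with earlier results of these data known. Values on every array are given for members whose groups do not overlap and for the 3 members of each role with the smallest p. At most 2 genes with the smallest p are named from each pathway list, except that TFAM is named in addition. Alternatives covered scaling, background correction, the deposited values, filters on probes, flagged spots, the prior of the fit, array weights, the choice of probe, a replicate block and each array left out. Sequences were not used here, so a planned search of promoters for motifs was not run.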

Additional observations from a re-analysis of the deposited data

Results flagged for a closer look

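In 56 groups of 4 arrays, the gap between the most extreme array and its nearest neighbour was divided by the range of the group and set against Dixon's critical value for the 95% level. Chance alone passes about 1 in 20 such groups, and 3 of the 56 passed. For COX7C, a small subunit of complex IV, the ratio was 0.831 in suckling piglets, where replicate 4 was far above the other 3. For IDH2 it was 0.856 in weaned piglets, where replicate 1, at 5.93, was above 3 arrays that lay between 5.83 and 5.84. The range of IDH2 in that group was narrow, with an SD of 0.05. For the median deviation of the 5 citrate cycle genes the ratio was 0.867 in weaned piglets, with replicate 1 lowest at 0.00 and the others between 0.18 and 0.21.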

How the results depend on the processing

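The count of members past the threshold was 0 in every setting in which limma was run. Over all probes it was 54, and it was 0 with the planned normexp correction, 324 with array weights, 0 with a replicate block and 9 to 553 with 1 array left out (553 without suckling replicate 1). It was 41 to 73 in the other settings. Normexp also moved the median difference of all probes from 0.04 to -0.10 and that of the 21 genes from 0.15 to 0.45. A second normexp run, chosen after seeing the data because some local backgrounds were extreme, replaced flagged backgrounds and gave 73 and a median of 0.21. Differences near 0 changed sign. With quantile normalisation and with the deposited values these were NDUFB8 (-0.04), COX7C (-0.04), ATP5O (-0.02 and -0.03) and IDH3B (0.00). With median scaling they were NDUFB8 (-0.04), COX7C (-0.03) and ATP5O (-0.03). UQCRB was 0.27 with normexp and 0.02 with replaced backgrounds, where NDUFB8 was -0.05. With array weights SDHB was -0.07, UQCRB 0.02 and COX6C -0.02. As a mean over probes UQCRB was 0.11. By the probe with the smallest spread SDHD was -0.07, UQCRB 0.29 and COX6A1 -0.03. With 1 array left out, signs changed for NDUFB8 (-0.07 to 0.08), SDHB (-0.16 to 0.21), SDHD (-0.10 to 0.31), UQCRB (-0.11 to 0.06), COX6A1 (-0.07 to 0.21), COX6C (-0.08 to 0.20), COX7C (-0.09 to 0.19), ATP5O (-0.05 to 0.15), CS (-0.09 to 0.29), IDH3B (-0.04 to 0.13) and PDHB (-0.01 to 0.23). Of 441 comparisons of a member's difference with an alternative, 47 changed sign, and the cause was not tested. The size of a shift was set against the spread between piglets for the mean over probes alone, where 1 gene moved by more. Other settings were compared by sign and call only, and shifts beyond that spread occurred there. With normexp NDUFA4 went from 0.16 to 0.50, beside a within-group standard deviation of 0.15. The labels do not tie replicate numbers to litters, and deviations of same-numbered arrays correlated at 0.368, 0.00763, 0.186 and -0.0179, so the numbers were not taken as pairs. With a replicate block 0 probes and 0 members passed. Not every array correlated best with its own number.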
